A study of Mus musculus with 12 samples.

Results

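The genes of cholesterol and fatty acid synthesis were followed in splenic B cells of mice in which Ebf1 was deleted or kept on 1 allele, at rest or after stimulation with lipopolysaccharide (LPS). The set holds 33 of the 27670 gene names on the array. Members were found by the gene name printed in the scanner files, older symbols included, and each was read from its brightest probe. They are 7 enzymes of the mevalonate pathway, 11 enzymes of the route that turns squalene's precursor into sterol, 6 genes that control the sterol-sensing SREBP factors or carry sterol, 5 fatty acid synthesis genes, and 4 genes of the liver X receptor (LXR) and its exporters.

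Cells build cholesterol from acetyl-CoA through mevalonate, farnesyl diphosphate, squalene and lanosterol. SREBP transcription factors drive most of these enzymes: Scap carries an SREBP to the Golgi for cleavage when membrane sterol is low, and the Insig proteins hold it in the endoplasmic reticulum when sterol is high. LXR works the other way round: it is activated by oxysterols and turns on the lipid exporters Abca1 and Abcg1. B cells that enter division need sterol and fatty acid for new membrane.

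Sorted B cells of C57BL/6 spleen were measured on 12 one-colour Agilent arrays, 3 in each of 4 groups: LPS-stimulated Ebf1 fl/fl RERT-Cre, LPS-stimulated Ebf1 +/fl RERT-Cre, resting fl/fl RERT-Cre and resting +/fl RERT-Cre, called LPS fl/fl, LPS +/fl, resting fl/fl and resting +/fl below. All 4 groups carried the tamoxifen-inducible Cre and all mice had received 3 mg of tamoxifen citrate on each of 4 days, with analysis on day 10. The controls were therefore heterozygotes with 1 intact Ebf1 allele, not wild-type animals, and no group lacked Cre or tamoxifen. Age and sex of the mice, the dose and duration of LPS and any culture of the resting cells are not given in the sources used here. The labels name 2 sort gates, B220+AA4.1- cells and the CD21lo fraction of B220+AA4.1- cells, without saying which sample came from which. The labels say triplicates without saying that each was its own animal, and the p-values cover the spread of these samples alone, technical or not. In bulk RNA, fewer cells of a type and less RNA per cell cannot be told apart.

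B cell marker probes were well above background on all arrays for all 9 genes of the B cell list. Between 54.4% and 61.4% of spots were well above background on 11 arrays, against 83.2% on LPS fl/fl replicate 2. The 2 Ebf1 probes disagreed: in resting fl/fl cells the brighter was higher than in resting +/fl cells (log2 difference 0.62, adjusted p = 0.0384) and the dimmer was lower (-1.90, adjusted p = 0.0432), while in LPS cells they differed by 0.12 and -0.92 (adjusted p = 0.675 and 0.315). The sources used here do not place either probe inside or outside the deleted part of Ebf1.

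Values below are log2 signals relative to the 75th percentile of the same array, so that 0 is the level of that percentile and 1 unit is a factor of 2. They compare a gene between groups, not one gene's level with another's. Differences are log2, with the standard error (SE) and a p-value from limma adjusted over the 17142 genes past the filter on dim probes, and a gene was called where that adjusted p was under 0.05. All 33 members passed the filter, all were well above background on all 12 arrays, and none had a saturated spot.

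Promoter stretches of 5 members follow, because most of the sterol enzymes moved together after LPS and these show the short motifs shared or not shared among them. Each is the 160 bases before the RefSeq transcript start in build GRCm38.p6, printed 5′ to 3′ on the gene's strand. Capitals mark matches to the sterol regulatory element form TCACNCCAC, to the NF-Y box, CCAAT on its own strand and ATTGG where it lies on the other, and to the E-box CACGTG, each searched on both strands. Hmgcs1, chr13:119690191-119690350 on the plus strand, was the member holding the sterol element form. Idi1 (chr13:8885446-8885605, plus strand), Fasn (chr11:120824548-120824707, minus strand), Hsd17b7 (chr1:169969206-169969365, minus strand) and Abca1 (chr4:53159896-53160055, minus strand) were added after their values were seen, as 3 members that rose after LPS and 1 that fell.
Hmgcs1: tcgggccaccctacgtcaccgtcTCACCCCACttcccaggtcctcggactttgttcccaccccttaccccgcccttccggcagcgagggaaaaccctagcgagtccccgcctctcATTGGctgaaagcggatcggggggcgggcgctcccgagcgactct
Idi1: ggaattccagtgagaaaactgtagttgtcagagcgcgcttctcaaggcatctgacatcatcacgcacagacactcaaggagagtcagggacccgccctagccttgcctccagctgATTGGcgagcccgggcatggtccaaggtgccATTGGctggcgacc
Fasn: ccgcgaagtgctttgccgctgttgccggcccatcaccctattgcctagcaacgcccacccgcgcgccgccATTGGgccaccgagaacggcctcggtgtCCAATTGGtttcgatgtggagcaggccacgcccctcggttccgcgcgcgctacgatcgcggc
Hsd17b7: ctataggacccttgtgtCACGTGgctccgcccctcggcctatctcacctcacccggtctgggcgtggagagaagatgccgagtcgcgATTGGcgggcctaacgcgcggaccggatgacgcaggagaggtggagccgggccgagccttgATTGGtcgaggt
Abca1: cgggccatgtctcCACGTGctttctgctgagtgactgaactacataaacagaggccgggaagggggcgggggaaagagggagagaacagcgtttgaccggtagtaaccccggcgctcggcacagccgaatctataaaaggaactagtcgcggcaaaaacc

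In Hmgcs1 the sterol element form began at position -137 and an NF-Y box at -45 relative to the start. The Idi1 stretch held NF-Y boxes at -45 and -14, Fasn at -90, -62 and -59, the last 2 overlapping on opposite strands, and Hsd17b7 at -73 and -12 beside an E-box at -143. No NF-Y box was found in the Abca1 stretch, which held an E-box at -147. Promoter windows, 250 bases before to 50 after the start, were in the RefSeq table for 26 of the 33 members; Fdps, Fdft1, Sqle, Stard4, Scd1, Scd2 and Abcg1 had none there. An NF-Y box lay in the window of 20 of these 26 genes (76.9%), against 41.1% of the 27025 genes in the table. It was in 16 of the 18 members that rose after LPS in +/fl cells, in 1 of the 4 that fell and in 3 of the 4 not called. The one that fell and held it was Insig2, which is not among the printed stretches, with boxes at -136, -46 and -29. The sterol element form was in 1 of 26 (3.85%) against 1.44% of all genes, and the E-box in 6 of 26 (23.1%) against 8.09%. Neither a longer form of the sterol element nor the LXR form DR4 was in any of the 26. Some genes have several windows, and a match says only that the letters are there.

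The sterol synthesis enzymes rose together after LPS in both genotypes. In fl/fl cells 14 of the 18 enzymes rose and 2 fell, with a median log2 change of 1.56 (LPS over resting). In +/fl cells 15 rose and 1 fell, with a median of 1.90. Among all genes the median was 0.08 in fl/fl cells, where 30.2% were called higher and 25.4% lower, and -0.02 in +/fl cells, where 30.7% were called higher and 27.0% lower. Over all 33 members, 20 rose and 6 fell in fl/fl cells and 22 rose and 6 fell in +/fl cells. The median change was 1.24 in fl/fl cells and also 1.24 in +/fl cells; without the exporters Abca1 and Abcg1 it was 1.29 in fl/fl and 1.41 in +/fl cells. The fl/fl and +/fl responses share no array, and 20 members rose and 5 fell in both. Of 8 proliferation markers, 1 rose and 1 fell after LPS in fl/fl cells (median 0.47). In +/fl cells 1 of the 8 rose and none fell (median -0.19). On LPS fl/fl replicate 2, with 83.2% of spots well above background, every proliferation marker but Pcna read highest of its group. Cdk1 read -1.88 there, against -3.98 and -4.09 on the other LPS fl/fl arrays, and Bub1 -2.74, against -5.02 and -4.63. How far the fl/fl median of these markers depends on that array was not tested.

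**Figure D1:**
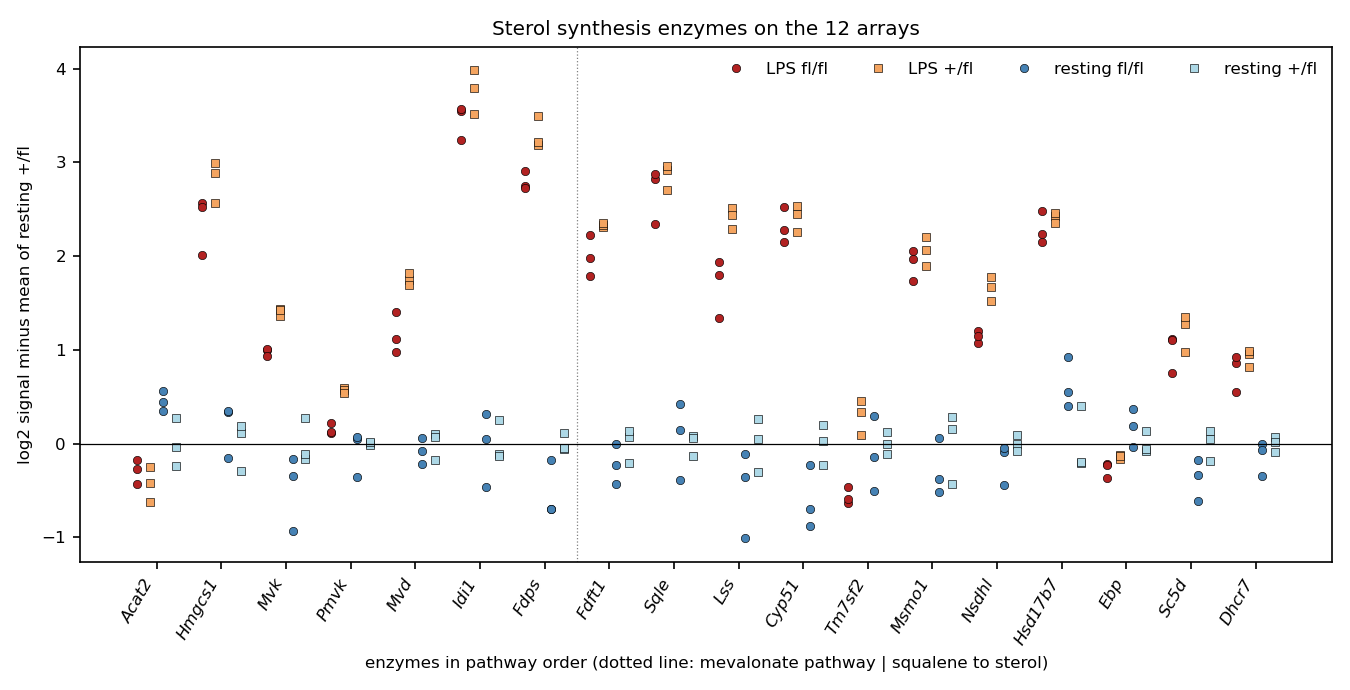
Log2 signal of the 18 sterol enzymes on each of the 12 arrays, minus the gene's mean in resting +/fl cells (vertical axis), in pathway order (horizontal axis); red circles are LPS fl/fl, orange squares LPS +/fl, dark blue circles resting fl/fl and light blue squares resting +/fl, 3 arrays each. LPS points lie above resting points for most enzymes, while Acat2, Tm7sf2 and Ebp do not rise.

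In the mevalonate pathway the largest changes were in Idi1 and Fdps. Idi1, the isomerase that makes dimethylallyl diphosphate, read 4.89, 4.58 and 4.92 in LPS fl/fl cells, against 1.39, 0.89 and 1.66 in resting fl/fl cells. In LPS +/fl cells it read 4.86, 5.33 and 5.14, against 1.60, 1.23 and 1.21 in resting +/fl cells. Every LPS array was above every resting array, an 11.2-fold rise in fl/fl cells (log2 3.49, SE 0.21, adjusted p = 6.29e-07) and a 13.6-fold rise in +/fl cells (3.76, SE 0.21, 3.52e-07). Fdps, which makes farnesyl diphosphate, the branch point to sterols and to prenylated proteins, read 4.41, 4.25 and 4.23 in LPS fl/fl cells and 0.80, 0.80 and 1.33 in resting fl/fl cells. Its values in +/fl cells were 4.69, 4.99 and 4.71 after LPS and 1.61, 1.44 and 1.45 at rest. The rise was 9.98-fold in fl/fl cells (log2 3.32, SE 0.16, adjusted p = 1.56e-07) and 9.84-fold in +/fl cells (3.30, SE 0.16, 1.50e-07). Hmgcs1, the synthase that makes HMG-CoA, stood at 5.14, 4.59 and 5.10 in LPS fl/fl cells, against 2.91, 2.43 and 2.92 in resting fl/fl cells. It stood at 5.15, 5.46 and 5.57 in LPS +/fl cells, against 2.69, 2.76 and 2.28 in resting +/fl cells. LPS and resting values were again apart, with log2 changes of 2.19 in fl/fl cells (SE 0.21, adjusted p = 1.24e-05) and 2.82 in +/fl cells (SE 0.21, 2.08e-06).

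The pathway's remaining steps moved less. The kinase Mvk rose by 1.46 in fl/fl and 1.41 in +/fl cells, and the decarboxylase Mvd by 1.24 in fl/fl and 1.75 in +/fl cells. Pmvk, the kinase between them, rose in +/fl cells (0.57, SE 0.12, adjusted p = 0.0020) and was not called in fl/fl cells (0.23, adjusted p = 0.119). Its +/fl call was lost with normexp background correction, quantile normalization, array median scaling and the authors' deposited table, with a change as low as 0.22. Acat2, the cytosolic thiolase that joins the first acetyl-CoA units, was the mevalonate enzyme that fell: its log2 change was -0.74 in fl/fl cells (SE 0.15, adjusted p = 0.0018) and -0.43 in +/fl cells (SE 0.15, adjusted p = 0.0309). The +/fl call of Acat2 was lost in 13 of the 29 alternative settings, among them the left-out resting +/fl replicates 2 and 3 and LPS +/fl replicates 2 and 3.

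On the route from squalene's precursor to sterol, 9 of 11 enzymes rose in each genotype. Among all genes 30.2% were called higher in fl/fl and 30.7% in +/fl cells. Sqle, the squalene epoxidase, read 4.38, 3.91 and 4.43 in LPS fl/fl cells, against 1.71, 1.18 and 1.98 in resting fl/fl cells, and 4.27, 4.49 and 4.52 in LPS +/fl cells, against 1.64, 1.62 and 1.43 in resting +/fl cells. The rise was 6.14-fold in fl/fl cells (log2 2.62, SE 0.21, adjusted p = 3.54e-06) and 7.28-fold in +/fl cells (2.86, SE 0.21, 1.75e-06). Fdft1, the squalene synthase, had 3.15, 2.71 and 2.91 in LPS fl/fl cells, against 0.49, 0.69 and 0.92 in resting fl/fl cells. In +/fl cells Fdft1 had 3.24, 3.26 and 3.28 after LPS, against 0.99, 1.06 and 0.72 at rest, so its rise was 2.22 in fl/fl (SE 0.15, adjusted p = 1.22e-06) and 2.34 in +/fl cells (SE 0.15, 8.06e-07). Cyp51, which removes a methyl group from lanosterol, read 2.13, 1.76 and 1.89 in LPS fl/fl cells, against -1.27, -1.10 and -0.63 in resting fl/fl cells. Its +/fl values were 1.86, 2.13 and 2.05 after LPS and -0.37, -0.20 and -0.62 at rest. The LPS groups overlapped while the resting groups did not, and the rises were 2.92 in fl/fl (SE 0.18, adjusted p = 7.94e-07) and 2.41 in +/fl cells (SE 0.18, 2.40e-06).

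The sterol methyl oxidase Msmo1 stood at 5.0, 4.68 and 4.92 in LPS fl/fl cells, against 2.56, 2.43 and 3.01 in resting fl/fl cells, a change of 2.20 (SE 0.21, adjusted p = 1.19e-05). Its +/fl values were 4.84, 5.01 and 5.16 after LPS, against 3.23, 3.1 and 2.52 at rest, a change of 2.06 (SE 0.21, 1.73e-05). Nsdhl, the dehydrogenase that acts with Msmo1 in removing methyl groups, read -0.07, -0.19 and -0.13 in LPS fl/fl cells, against -1.72, -1.36 and -1.32 in resting fl/fl cells. In LPS +/fl cells it read 0.25, 0.40 and 0.51, against -1.28, -1.35 and -1.18 in resting +/fl cells. All LPS arrays were above all resting arrays, with changes of 1.33 in fl/fl (SE 0.13, adjusted p = 1.05e-05) and 1.66 in +/fl cells (SE 0.13, 2.20e-06). The lanosterol synthase Lss rose by 2.18 in fl/fl and 2.41 in +/fl cells, the ketoreductase Hsd17b7 by 1.66 in fl/fl and 2.41 in +/fl cells, the desaturase Sc5d by 1.36 in fl/fl and 1.20 in +/fl cells, and Dhcr7, which makes the last reduction to cholesterol, by 0.91 in fl/fl and 0.92 in +/fl cells. The sterol reductase Tm7sf2 was not called in either genotype (-0.45 in fl/fl and 0.30 in +/fl cells, adjusted p = 0.0661 and 0.204). Ebp, the sterol isomerase, fell in fl/fl cells (-0.45, SE 0.12, adjusted p = 0.0080) and was not called in +/fl cells (-0.14, adjusted p = 0.331). The fl/fl call of Ebp was lost with normexp (-0.07) and array median scaling (-0.75), and Ebp was called lower in +/fl cells too with quantile normalization and the deposited table (-0.53 to -0.54 over both).

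Among the genes that control SREBP, those of the retention step moved in opposite directions. Insig1, itself a target of SREBP, rose by 1.83 in fl/fl (SE 0.20, adjusted p = 3.04e-05) and 1.93 in +/fl cells (SE 0.20, 1.85e-05). Insig2 fell, with changes of -0.58 in fl/fl (SE 0.11, adjusted p = 0.0014) and -0.64 in +/fl cells (SE 0.11, 0.000693). Array values of Insig1 ran from 0.45 to 0.77 in LPS fl/fl and 0.60 to 0.85 in LPS +/fl cells, against -1.44 to -0.71 in resting fl/fl and -1.38 to -0.98 in resting +/fl cells. For Insig2 they ran from 0.67 to 0.96 in LPS fl/fl and 0.58 to 0.84 in LPS +/fl cells, against 1.37 to 1.45 in resting fl/fl and 1.20 to 1.43 in resting +/fl cells. LPS and resting arrays thus did not overlap for either Insig gene. The escort protein gene Scap rose by 0.75 in fl/fl and 0.67 in +/fl cells, and Stard4, a cytosolic sterol carrier, by 1.29 in fl/fl and 1.62 in +/fl cells. Srebf2, which encodes the SREBP that mainly serves sterol synthesis, rose in +/fl cells (0.51, SE 0.12, adjusted p = 0.0036) and was not called in fl/fl cells (0.27, adjusted p = 0.0776). The +/fl call of Srebf2 was lost in 5 of the 29 settings, with a change as low as 0.10, and it was called in fl/fl cells too in 4. Srebf1, whose products mainly serve fatty acid synthesis, was called in neither (-0.26 in fl/fl and -0.14 in +/fl cells, adjusted p = 0.118 and 0.381).

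**Figure D2:**
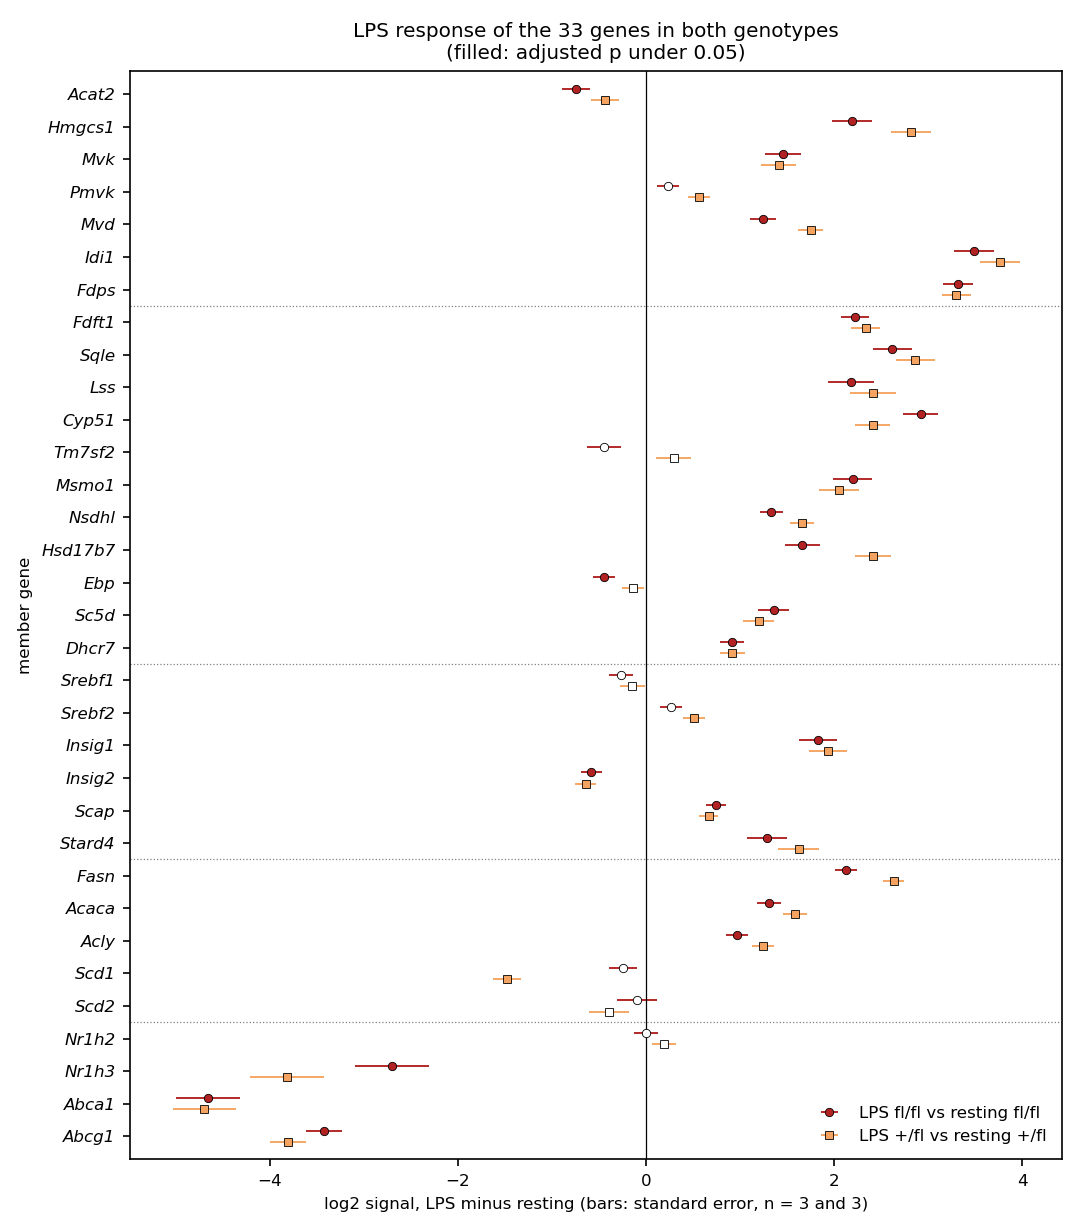
Log2 change after LPS (horizontal axis, bars show SE, 3 arrays against 3) for the 33 genes (vertical axis, role groups parted by dotted lines); red circles are fl/fl, orange squares +/fl, and filled symbols passed adjusted p under 0.05. Idi1 and Fdps lie farthest right, Abca1 farthest left, and Scd1 is the gene whose 2 symbols lie far apart among those near the middle.

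The fatty acid genes did not share one direction: the enzymes that build the carbon chain rose after LPS, and the desaturases did not. Fasn, the fatty acid synthase, read 6.64, 6.56 and 6.47 in LPS fl/fl cells, against 4.56, 4.38 and 4.35 in resting fl/fl cells. In LPS +/fl cells it read 6.96, 7.14 and 7.02, against 4.50, 4.22 and 4.50 in resting +/fl cells. The rise was 4.36-fold in fl/fl cells (log2 2.13, SE 0.11, adjusted p = 3.10e-07) and 6.21-fold in +/fl cells (2.63, SE 0.11, 9.10e-08), with no overlap between LPS and resting arrays. Acaca, the acetyl-CoA carboxylase that makes malonyl-CoA, rose by 1.31 in fl/fl and 1.59 in +/fl cells. Acly, which supplies cytosolic acetyl-CoA from citrate, rose by 0.97 in fl/fl and 1.24 in +/fl cells.

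Scd1 and Scd2 encode stearoyl-CoA desaturases, which place the double bond of oleate, and they were the members that differed between genotypes. At rest, 2 of 33 members were called between fl/fl and +/fl cells, both lower (8.82% of all genes were called, 4.18% lower). After LPS, the same 2 genes were called and again both were lower (1.62% of all genes were called, 0.758% lower). Scd1 read 2.98, 2.95 and 2.67 in resting fl/fl cells, against 4.66, 4.94 and 5.11 in resting +/fl cells. It was 4.11-fold lower in resting fl/fl cells (log2 -2.04, SE 0.15, 95% interval -2.37 to -1.71, adjusted p = 0.00025). In LPS fl/fl cells Scd1 read 2.71, 2.40 and 2.74, against 3.49, 3.34 and 3.44 in LPS +/fl cells, 1.75-fold lower (-0.80, SE 0.15, 95% interval -1.14 to -0.47, adjusted p = 0.0363). The groups did not overlap in either state.

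Scd2 read 1.99, 1.59 and 1.81 in resting fl/fl cells, against 3.55, 2.75 and 3.46 in resting +/fl cells, a 2.75-fold lower signal (log2 -1.46, SE 0.21, 95% interval -1.94 to -0.98, adjusted p = 0.0075). In LPS fl/fl cells it read 1.66, 1.67 and 1.76, against 2.97, 2.58 and 3.04 in LPS +/fl cells, 2.24-fold lower (-1.17, SE 0.21, 95% interval -1.64 to -0.69, adjusted p = 0.0353). Again no fl/fl array reached the lowest +/fl array. Per the file headers, both probes lie on chromosome 19 in build mm7, Scd1 at 44288770 to 44288829 and Scd2 at 44200407 to 44200466. Each gene had 1 probe, and since the desaturase genes are close relatives, signal from a related transcript was not tested. With 3 arrays against 3, an exact two-sided permutation test of 1 gene cannot go below p = 0.1, so these calls rest on the fit across all genes.

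**Figure D3:**
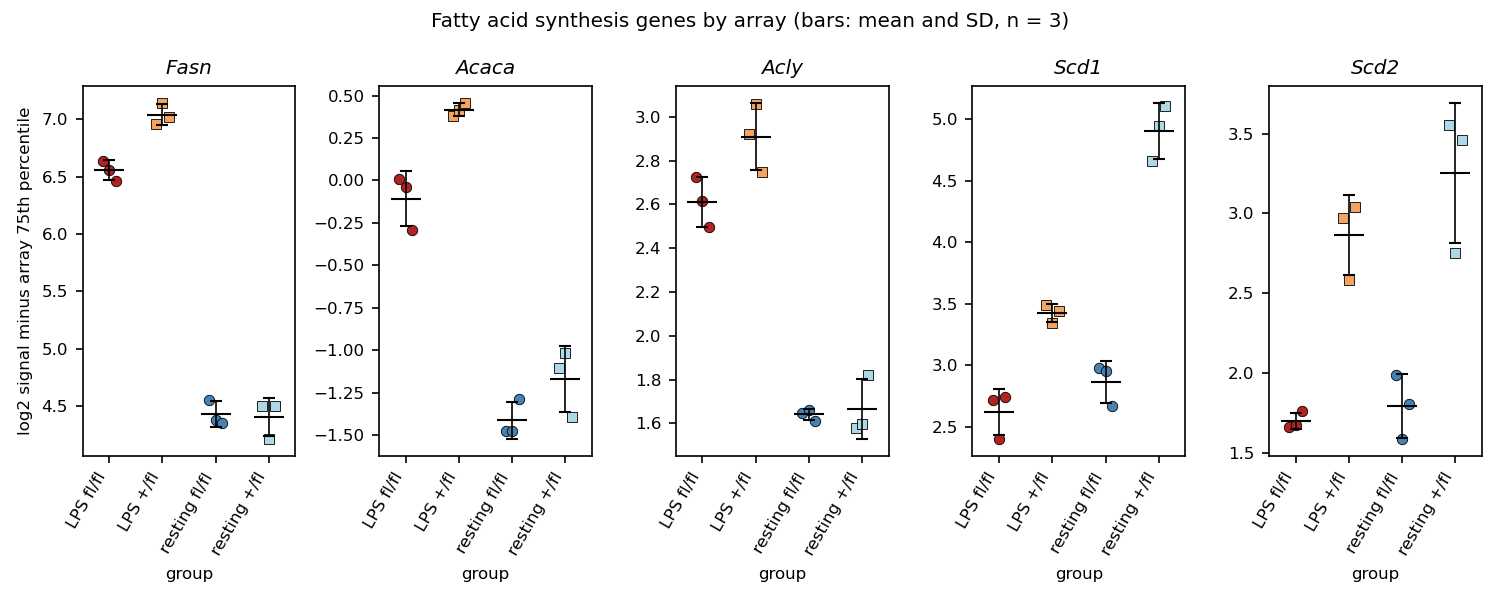
Log2 signal, centred on each array's 75th percentile (vertical axes, scaled per gene), of the 5 fatty acid synthesis genes in the 4 groups (horizontal axis); points are arrays, bars the mean and SD of 3. Fasn, Acaca and Acly are high in both LPS groups, while Scd1 and Scd2 are lower in fl/fl than in +/fl cells in both states and Scd1 is highest in resting +/fl cells.

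On the 3 slides that each held both resting groups, the resting difference of Scd1 was -1.97, -1.71 and -2.44 and that of Scd2 -0.76, -1.97 and -1.65. Slide 2 alone held both LPS groups, and there Scd1 differed by -0.74 and Scd2 by -1.21. The resting call of Scd1 held in 28 of 29 alternative settings and that of Scd2 in 24. The LPS calls held in fewer settings: Scd1 kept its call in 12 of 29 settings and Scd2 in 14, and leaving out any 1 of the 6 LPS arrays or resting fl/fl replicate 3 lost both calls (adjusted p between 0.0514 and 0.114 for Scd1 and Scd2). Their direction held in all 29.

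Marker lists moved beside these differences. Their counts stand beside 8.82% of all genes called at rest (4.18% lower) and 1.62% after LPS (0.858% higher and 0.758% lower). The summed signals add linear values, so the brightest probes of a list make up most of its sum. In LPS fl/fl replicate 1, for example, the log2 signals were 5.90 for Pcna and 3.55 for Mcm4, against -3.98 for Cdk1. In resting fl/fl cells 4 of 8 proliferation markers were lower than in resting +/fl cells, with summed signals of 48.5 to 53.4, against 67.5 to 76.2 times the array's 75th percentile. After LPS 2 of 8 were lower, with sums of 72.7 to 74.6 in fl/fl and 88.6 to 95.3 in +/fl cells. The macrophage, monocyte and neutrophil list summed to 14.3 to 22.0 in resting fl/fl cells, against 21.7 to 139 in resting +/fl cells, with 1 of 14 genes called lower. All 14 had a lower mean in resting fl/fl cells (median log2 difference -0.99). Of these, 6 had an unadjusted p under 0.05, against 27.7% of all genes. Resting +/fl replicate 2 had the lowest sum of this list in its group, 21.7. On that array Scd1 read 4.94, between the other +/fl arrays, and Scd2 read 2.75, the lowest of its group. Red pulp macrophage markers summed to 6.12 to 8.41 in resting fl/fl cells, against 8.61 to 25.0 in resting +/fl cells, so these groups did not overlap. All 5 had a lower mean in resting fl/fl cells, with 0 called by limma and 2 at an unadjusted p under 0.05, against 27.7% of all genes. Dendritic cell markers summed to 3.39 to 4.04 in resting fl/fl cells, against 3.67 to 4.49 in resting +/fl cells, with 1 of 6 called lower. After LPS they summed to 1.85 to 2.15 in fl/fl and 1.52 to 1.59 in +/fl cells, with 1 of 6 called higher. The macrophage, monocyte and neutrophil list summed to 20.0 to 78.6 in LPS fl/fl and 12 to 91.7 in LPS +/fl cells. None of its 14 genes was called by limma after LPS, and 2 had an unadjusted p under 0.05, against 21.5% of all genes. B cell markers summed to 539 to 615 in resting fl/fl and 582 to 724 in resting +/fl cells, and to 210 to 261 in LPS fl/fl and 288 to 292 in LPS +/fl cells, with 2 and 1 of 9 genes called lower in fl/fl. Erythroid markers summed to 8.45 to 101 in resting fl/fl and 35.8 to 77.5 in resting +/fl cells, and all 9 had a lower mean in fl/fl. T cell markers summed to 13.8 to 14.6 in resting fl/fl and 14.7 to 21.6 in resting +/fl cells. After LPS T cell markers summed to 6.6 to 8.22 in fl/fl and 5.45 to 6.42 in +/fl cells. No erythroid or T cell marker was called between genotypes. The part of these cell differences in the Scd1 and Scd2 results was not tested.

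The LPS response of Scd1 also differed in size between genotypes, without passing the test. Scd1 fell in +/fl cells (-1.48, SE 0.15, adjusted p = 1.50e-05) and was not called in fl/fl cells (-0.25, SE 0.15, adjusted p = 0.191). The difference of the responses was 1.24 (SE 0.21, 95% interval 0.77 to 1.70, adjusted p = 0.0624), and it passed in 6 alternative settings. For Scd2 the responses were -0.10 in fl/fl and -0.39 in +/fl cells (adjusted p = 0.730 and 0.148), and they differed by 0.29 (SE 0.30, adjusted p = 0.604). Over all members, 0 of 33 had a called difference of response (0.163% of all genes did), and 5 had an unadjusted p under 0.05, against 20.3% of all genes.

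For the other 31 members no genotype difference was called. At rest their log2 differences, fl/fl minus +/fl, lay between -0.81 and 0.63, and the 95% intervals reached -1.69 and 1.05. After LPS they lay between -0.86 and 0.47, with intervals reaching -1.28 and 1.19, so differences of those sizes lie within the intervals. Some of the 31 were called in alternative settings. At rest these were Fdps (6 of 29 settings), Cyp51 and Hsd17b7 (3 each) and Acat2 (1). After LPS they were Tm7sf2 (6), Mvd (4), Fasn (3), Acaca, Nsdhl and Pmvk (2 each) and Abcg1 (1). Without overlap between the groups were 6 members at rest, 2 of them higher (Acat2 and Hsd17b7) and 4 lower (Scd1, Scd2, Fdps and Cyp51), while 31.2% of all genes did not overlap. After LPS 16 members did not overlap, 15 lower and Abcg1 higher, while 33.2% of all genes did not overlap. The dimmer Fdps probe went the other way, by 0.61 at rest and 0.40 after LPS, neither called. The nearest resting Cyp51 arrays read -0.6258 in fl/fl and -0.6245 in +/fl cells. Other Cyp51 probes differed by -0.67 and -0.21 at rest, and for the latter the groups overlapped. Of the 29 other probes of members, 11 had the opposite sign at rest to the probe used.

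**Figure D4:**
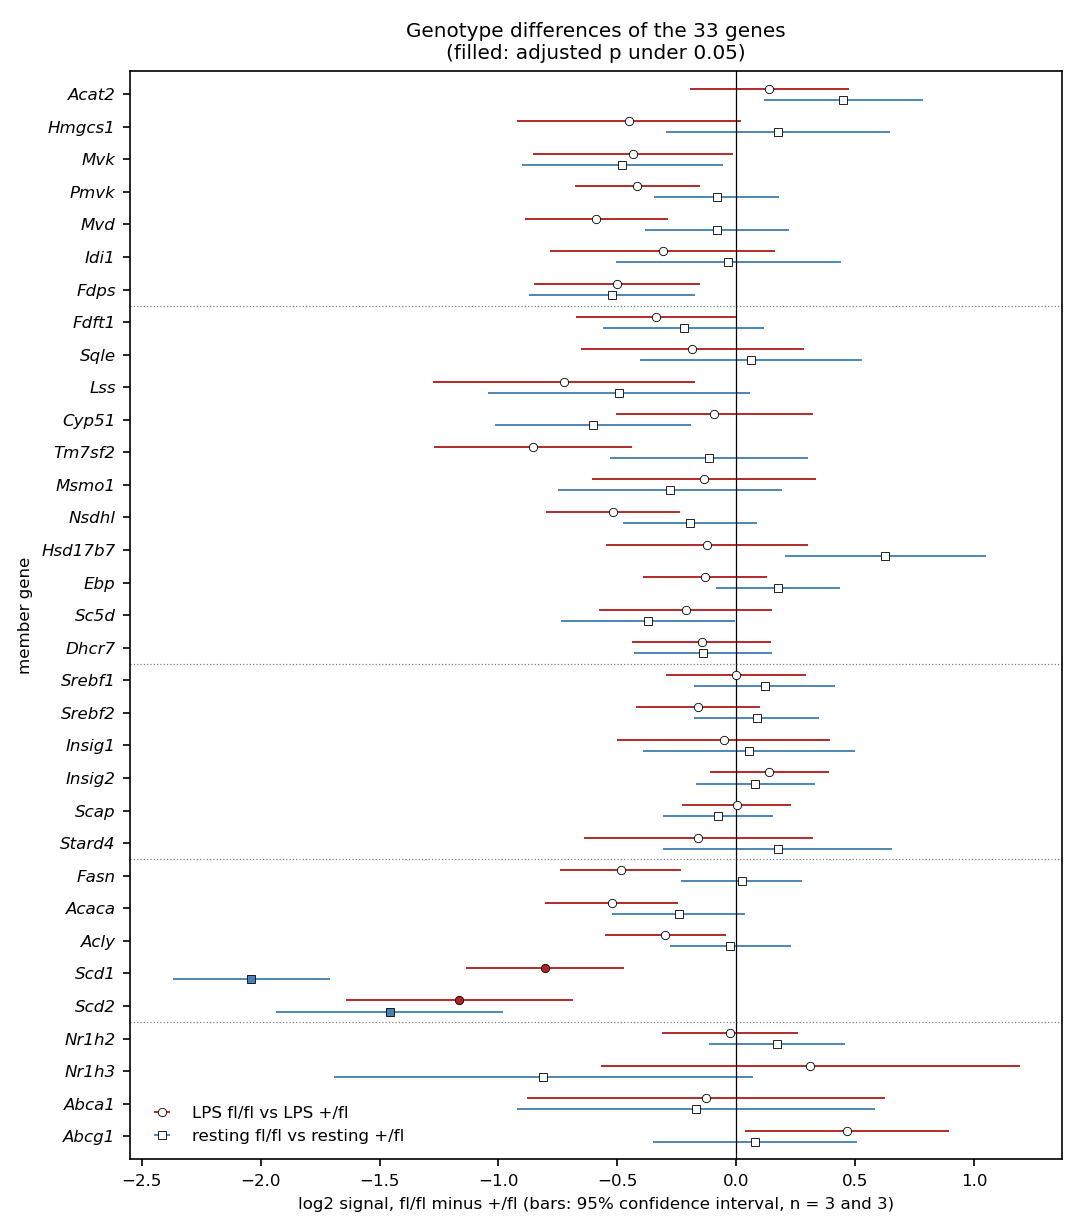
Log2 difference between fl/fl and +/fl cells (horizontal axis, bars show the 95% interval, 3 arrays against 3) for the 33 genes (vertical axis); red circles compare LPS cells, blue squares resting cells, and filled symbols passed adjusted p under 0.05. Scd1 and Scd2 are the filled symbols, both left of 0 in both states, and most other red circles also lie left of 0.

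After LPS, 17 of the 18 sterol enzymes had a lower mean in fl/fl than in +/fl cells, with a median difference of -0.32, against 0.04 over all genes. None of the 18 was called by limma, and 7 had an unadjusted p under 0.05, against 21.5% of all genes. The nearest were Tm7sf2 (-0.86, adjusted p = 0.0542), with -0.66, -0.83 and -0.79 in LPS fl/fl cells, against 0.14, -0.10 and 0.26 in LPS +/fl cells, and Mvd (-0.59, adjusted p = 0.0642). Fasn and Acaca lay close to them (-0.49 and -0.52, adjusted p = 0.0658 and 0.0703). The number of enzymes below 0 depended on the background correction and scaling: it was 6 of 18 with normexp background correction, 14 of 18 with quantile normalization and 18 of 18 with scaling to the array median, where the median of all genes was -0.48. The median of all genes was -0.12 with normexp and -0.04 with quantile normalization. Below the median of all genes lay 17 enzymes as reported and with array median scaling, 11 with quantile normalization and 6 with normexp. Slide 2 held LPS fl/fl replicate 3 and LPS +/fl replicate 1, and there the median of the 18 was -0.22. On it Idi1, Sqle, Cyp51, Msmo1, Sc5d and Dhcr7 lay above 0 (0.03 to 0.16) and the other enzymes below. The other LPS fl/fl arrays were all on slide 3 and the other LPS +/fl arrays all on slide 1. Between those arrays genotype and slide cannot be told apart. Of the 29 other probes of members, 9 had the opposite sign to the probe used in this comparison. At rest the 18 enzymes had a median difference of -0.13 and 13 were below 0. Over all genes the resting median was 0.05, and 7697 of 17142 were below 0.

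The LXR target genes Abca1 and Abcg1 fell after LPS in both genotypes. Abca1, the exporter that loads cholesterol onto lipid-poor apolipoprotein, read -2.52, -3.77 and -2.77 in LPS fl/fl cells, against 1.85, 1.89 and 1.16 in resting fl/fl cells. In LPS +/fl cells it read -3.26, -2.96 and -2.46, against 1.63, 1.98 and 1.79 in resting +/fl cells. It was thus 25.2-fold lower after LPS in fl/fl cells (log2 -4.65, SE 0.34, adjusted p = 1.81e-06) and 25.9-fold lower in +/fl cells (-4.69, SE 0.34, 1.55e-06). The size depended on the processing: over 29 alternative settings the log2 change of Abca1 ran from -5.33 to -3.45 in fl/fl and from -4.91 to -2.77 in +/fl cells. Abcg1, which exports cholesterol to high-density lipoprotein, read -0.87, -0.98 and -1.01 in LPS fl/fl cells, against 2.69, 2.46 and 2.25 in resting fl/fl cells. Its +/fl values were -1.25, -1.43 and -1.58 after LPS, against 2.65, 1.94 and 2.57 at rest. The decreases were 10.7-fold in fl/fl (log2 -3.42, SE 0.19, adjusted p = 4.13e-07) and 14-fold in +/fl cells (-3.81, SE 0.19, 2.06e-07).

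Nr1h3 and Nr1h2 encode the LXR receptors. Nr1h3 fell, with changes of -2.70 in fl/fl (SE 0.39, adjusted p = 0.000228) and -3.82 in +/fl cells (SE 0.39, 1.82e-05). It read -4.43, -3.59 and -4.41 in LPS fl/fl and -4.43, -4.61 and -4.32 in LPS +/fl cells, against -1.18, -1.45 and -1.71 in resting fl/fl and 0.37, -0.99 and -1.29 in resting +/fl cells. Resting +/fl replicate 1 was the highest of these arrays. Nr1h2, expressed in most cell types, was not called after LPS (0.00 in fl/fl and 0.19 in +/fl cells, adjusted p = 0.988 and 0.225).

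Red pulp macrophage markers moved with this group. All 5 were called lower after LPS in both genotypes, and their summed signal was 0.985 to 1.66 in LPS fl/fl and 1.33 to 1.62 in LPS +/fl cells, against 6.12 to 8.41 in resting fl/fl and 8.61 to 25.0 in resting +/fl cells. In the macrophage, monocyte and neutrophil list 5 of 14 were called lower and 3 higher after LPS in fl/fl cells, and 9 were called lower in +/fl cells. Its members C1qc and Mrc1 were well above background on 6 resting arrays and on 0 LPS arrays. Others of the list, Adgre1, Cd68, Lyz2, C1qb, Marco, Cd14, S100a8, S100a9 and Mpo, were so on all 12 arrays. S100a9 read 3.86, 5.81 and 5.95 in LPS fl/fl cells, against 2.25, 0.77 and 1.58 in resting fl/fl cells. In +/fl cells its LPS and resting arrays overlapped. B cell markers moved too, with 6 of 9 called lower after LPS in each genotype. All these marker counts stand beside 25.4% of all genes called lower and 30.2% higher in fl/fl cells. In +/fl cells 27.0% of all genes were called lower and 30.7% higher. The part of these cell differences in the LXR results was not tested.

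**Figure D5:**
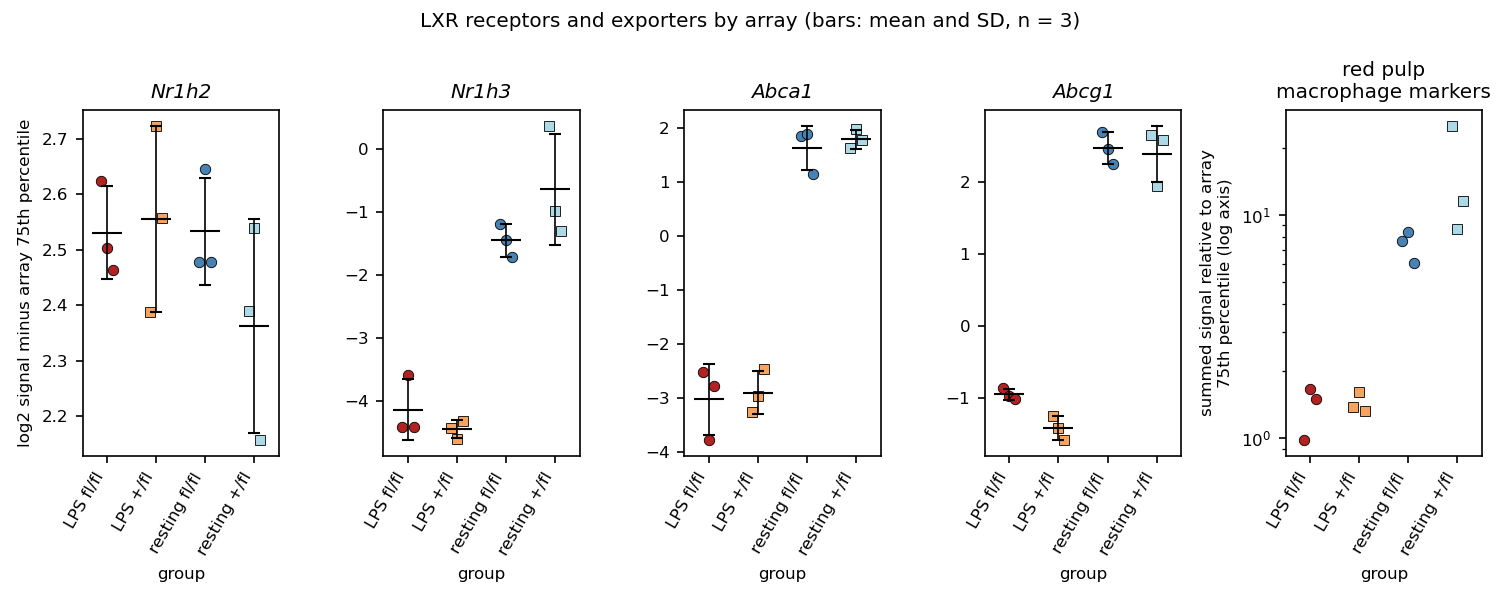
Log2 signal, centred on each array's 75th percentile (vertical axes, scaled per gene), of Nr1h2, Nr1h3, Abca1 and Abcg1 in the 4 groups, and at right the summed linear signal of 5 red pulp macrophage markers on a log axis; points are arrays, and bars in the gene panels the mean and SD of 3. Nr1h3, Abca1, Abcg1 and the marker sum are low in both LPS groups and high in both resting groups, and Nr1h2 is not.

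Other probes of the same genes moved in the same direction after LPS. In fl/fl cells all 29 other probes of members had the sign of the probe used, 23 of them called, and in +/fl cells all 29 did, 26 of them called. Within slides the median change of the 18 sterol enzymes was 1.58 and 1.58 in fl/fl cells (slides 2 and 3) and 1.90 and 1.62 in +/fl cells (slides 1 and 2). Beyond those named above, LPS calls lost in both genotypes with normexp were those of Acaca, Acly, Dhcr7, Insig2, Mvk, Nr1h3 and Scap, with Acat2 in fl/fl cells and Nsdhl, Sc5d and Scd1 in +/fl cells. With array median scaling the fl/fl calls of Acly, Dhcr7, Insig2, Mvd, Scap and Stard4 and the +/fl call of Insig2 were lost.

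Genes of the same pathways outside the set moved in both directions. Their counts stand beside 30.2% of all genes called higher and 25.4% lower after LPS in fl/fl cells, and 30.7% higher and 27.0% lower in +/fl cells. Of 20 further genes of sterol synthesis, uptake and storage, 8 rose and 7 fell after LPS in fl/fl cells and 9 rose and 7 fell in +/fl cells. Limma called none of the 20 between genotypes. An unadjusted p under 0.05 was found for 9 at rest, against 27.7% of all genes, and for 4 after LPS, against 21.5%. Tmem97, a sterol-responsive membrane protein, rose by 2.92 in fl/fl and 2.96 in +/fl cells (SE 0.13, adjusted p = 1.16e-07 and 8.90e-08). Soat1, which stores cholesterol as ester, fell by 1.60 in fl/fl cells (SE 0.15, adjusted p = 1.19e-05). In +/fl cells too, its LPS arrays all lay below its resting arrays. Of 23 further fatty acid and lipid synthesis genes measured, 12 rose and 5 fell in fl/fl cells, and 11 rose and 4 fell in +/fl cells. Hacd3 rose by 2.28 in fl/fl and 2.76 in +/fl cells, and Dgat2, which makes triglyceride, by 2.14 in fl/fl and 2.37 in +/fl cells. The fatty acid elongation gene Hsd17b12 rose by 1.98 in fl/fl and the elongase gene Elovl1 by 1.34 in +/fl cells. In the other genotype, too, all LPS arrays lay above all resting arrays for both genes. After LPS Elovl1 was lower in fl/fl than in +/fl cells (-0.51, adjusted p = 0.0444) and Fads3 higher (1.62, adjusted p = 0.0492).

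Of 11 further LXR genes measured, 7 fell and 2 rose after LPS in each genotype. Apoe, the lipid-binding apolipoprotein, fell by 4.26 in fl/fl cells and fell by 4.61 in +/fl cells (SE 0.21, adjusted p = 2.16e-07 and 1.34e-07). Smpdl3a fell by 3.69 in fl/fl cells and fell by 4.25 in +/fl cells (SE 0.15, adjusted p = 7.17e-08 and 4.73e-08). Mylip, a ubiquitin ligase gene induced by LXR, fell by 3.84 in fl/fl cells, and the phospholipid transfer protein gene Pltp fell by 3.49 in +/fl cells. In the other genotype, too, all LPS arrays lay below all resting arrays for both genes. Between genotypes Pltp was higher in LPS fl/fl than in LPS +/fl cells (1.36, adjusted p = 0.0161), and Mylip and Ncor1 were higher in resting fl/fl than in resting +/fl cells (0.80 and 0.45, adjusted p = 0.0443 and 0.0401). Apoe is also abundant in macrophages, whose markers fell as given above.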

How the data were processed

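Total RNA of sorted B cells was labelled with Cy3 and hybridised to Agilent design 014868, per the labels and the file headers. The deposited scanner files hold intensity per spot, made by the authors with Agilent Feature Extraction 9.1 per the submitters' processing notes and 9.5.3.1 per the file headers. That step had already subtracted background, and probe positions are on mm7 per the file headers. The authors' deposited value table, also intensity, was an alternative; its column medians were all 30.8, and its ranks followed the scanner values (Spearman at least 0.9999 per array).

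Control spots were dropped, spots of a probe averaged, and log2 signals centred on each array's 75th percentile. Of 41174 probes, 22951 were named by accession, 6659 by current and 3109 by older symbol, and 8455 kept the file's name; 87 lacked a value on some array. A gene was read from its brightest probe and tested where that probe was well above background on at least 3 arrays. limma 3.58.1 in R 4.3.3 fitted 4 group means over all 12 arrays, with Benjamini-Hochberg adjustment over 17142 genes. The fit was tested on simulated data. The 4 arrays of each of 3 slides were the batches.

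The rule named all 33 members, with full values for those called between genotypes and the 10 smallest p in each LPS response, and the 3 smallest p of each wider list. Some genes of the wider lists are not reported here. Members and lists were chosen with earlier results of these data known. Promoters came from RefSeq GRCm38.p6. The number of arrays limits the precision.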

Additional observations from a re-analysis of the deposited data

How the results depend on the processing

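Across 29 alternative settings no called member reversed. The number of members called between resting genotypes (2) was 0 with normexp background correction, 1 with array median scaling, with the 6 arrays of the contrast alone, without the pair with a shared sample-name number and without resting +/fl replicates 1 and 3 together, 3 where high local backgrounds were set to the array median before normexp, with quantile normalization and with the deposited table. It was 5 with probes well above background on all 12 arrays and with a trended robust eBayes, and 2 to 4 when leaving out 1 array. Between LPS genotypes (2) it was 0 with normexp, quantile normalization, no dim-probe filter, the deposited table, slide as a fixed block, the 6 arrays alone, a threshold of 0.01 and without the number-sharing pair. It was 1 with array median scaling, 4 with normexp on repaired backgrounds, 5 with trend and robust, 7 with the all-array filter, 9 with array weights, and 0 to 4 when leaving out 1 array. The LPS response counts (26 in fl/fl, 28 in +/fl) were 17 and 15 with normexp and otherwise 19 to 29 and 24 to 28; leaving out 1 array gave 26 to 28 and 27 to 28. The difference of responses (0) was 1, Scd1, with repaired normexp, quantile normalization, the all-array filter, the deposited table, trend and robust, and array weights, and 0 without any 1 array. The cause of these shifts was not tested.

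Samples with the same replicate number correlated between -0.080 and 0.126, so the replicate numbers were not taken to pair samples. The pair whose sample names share a number was resting +/fl replicate 3 and LPS +/fl replicate 1. These correlated at 0.133, the highest value among the pairs compared, and whether they share a source was not tested. With the replicate block, 2 members were called between resting genotypes, 1 between LPS genotypes, 27 in each LPS response and 0 in the difference of responses. Over all genes, calls numbered 683 at rest (1512 without the block), 30 after LPS (277) and 9 in the difference of responses (28). Over these settings calls among all genes ranged between 0 and 2225 at rest, 0 and 2764 after LPS, 2347 and 11139 in the fl/fl LPS response (9523 as reported), 1432 and 11363 in the +/fl response (9880) and 0 and 409 in their difference, with the lowest counts under normexp. Array median scaling moved the median of all genes to -0.48 between LPS genotypes, -0.23 in the fl/fl and 0.22 in the +/fl LPS response and -0.53 in their difference.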

Other observations

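Fatty acid oxidation genes moved in both directions after LPS. Of 17 measured, 9 fell and 3 rose in fl/fl cells, against 25.4% and 30.2% of all genes. In +/fl cells 7 fell and 3 rose, against 27.0% and 30.7% of all genes. The median changes were -0.31 in fl/fl and -0.27 in +/fl cells. Limma called none between genotypes, with an unadjusted p under 0.05 for 4 at rest (27.7% of all genes) and 1 after LPS (21.5%). Cpt1a, which carries long-chain fatty acids into mitochondria, fell by 3.28 in fl/fl cells (SE 0.24, adjusted p = 1.83e-06) and fell by 3.41 in +/fl cells (SE 0.24, 1.28e-06). Hadh fell by 1.37 in fl/fl cells, and its LPS arrays lay below its resting arrays in +/fl cells too. Eci1, an isomerase for unsaturated chains, rose by 1.23 in +/fl cells (SE 0.08, adjusted p = 1.09e-06). Its LPS arrays also lay above its resting arrays in fl/fl cells.

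The dimmer Idi1 probe, singled out after its values were seen, read -3.67, -3.53 and -3.64 in resting fl/fl cells, against -2.31, -3.11 and -3.03 in resting +/fl cells (-0.79, SE 0.20, adjusted p = 0.0442), while the brighter probe differed by -0.03. Both Idi1 probes are placed on chromosome 2 in mm7 by the file headers, whereas RefSeq has the gene on chromosome 13 in GRCm38.p6. The 3 Hmgcs1 probes are on an unplaced sequence in mm7, and the other 58 of 63 member probes are on the RefSeq chromosome. Signal from a related sequence was not tested.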
